A study of Mus musculus with 3 samples.

Results

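The miR-23/27/24 clusters were examined in the small RNA cargo of extracellular vesicles (EVs) from the neonatal mouse testis. Members were chosen by name: every mature or hairpin entry of miR-23a, miR-23b, miR-24, miR-27a and miR-27b on either arm, with the numbered entries miR-24-1-5p and miR-24-2-5p. This gave 19 entries, 10 mature and 9 hairpin, of the 1347 mature and hairpin entries counted in any library. The entries carry 10 identifiers, and miR-23a-5p, which the same rule allows, was listed in no library. All 3 libraries belong to 1 group, EVs isolated at postnatal day 7 (PND7) from the testes of C57/BL6 male mice, each from a preparation pooled from 10 mice. The EVs were treated with proteinase K, PMSF and RNase A before RNA extraction, and the sample titles carry the word treated without a further agent. No other condition was sequenced, so the comparisons below are between small RNAs within a library. The EVs came from whole decapsulated testes, so a level does not tell which cell type released the EVs, and fewer EVs of a type and less RNA per EV cannot be told apart.

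miRNAs are short RNAs that guide Argonaute proteins to target mRNAs, mainly through the seed near their 5′ end. An miRNA is cut from a hairpin precursor whose arms give a 5p and a 3p product, and usually 1 arm dominates. miR-23, miR-27 and miR-24 are transcribed together from paralogous clusters, called a and b here, and these miRNAs are known for their abundance in endothelial and other stromal cells and for roles in angiogenesis and differentiation.

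In mm10, the build named in the submitters' processing notes and the same assembly as GRCm38, the a cluster lies on chromosome 8 from 84208518 to 84208921 and spans 404 bases. Mir23a and Mir27a overlap no other annotated gene, and 2 bases of Mir24-2 overlap an exon of the lincRNA gene Gm26532. The b cluster lies on chromosome 13 from 63300484 to 63301275 and spans 792 bases, on the same strand as 2010111I01Rik and within an intron of Fancc on the opposite strand. Mir23b is in an intron of 2010111I01Rik, while Mir27b and Mir24-1 overlap annotated exons of it. Of the 10 member identifiers, 9 had a mature sequence in the RefSeq table (GRCm38.p6), and mmu-miR-23b-3p did not. The 3p sequences are shown because the comparison of the clusters rests on how far paralogs can be told apart, with the seed, bases 2 to 8 from the 5′ end, in capitals.
mmu-miR-23a-3p: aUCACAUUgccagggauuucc
mmu-miR-27a-3p: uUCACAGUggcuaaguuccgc
mmu-miR-27b-3p: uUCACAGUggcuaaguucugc
mmu-miR-24-3p: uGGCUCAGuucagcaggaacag
miR-27a-3p and miR-27b-3p share the seed and differ by 1 base of 21, C19U counted from the 5′ end. A read that stops before that base carries nothing that separates them, and how many mismatches the mapping tolerated is not given in the sources used here. The seeds of miR-23a-3p and miR-27a-3p also differ by 1 base, U7G. Without a sequence for miR-23b-3p, how far reads separate it from miR-23a-3p was not checked. Mature miR-24-3p is the same sequence from Mir24-1 and Mir24-2, so its counts cannot be divided between the clusters, and the deposited entries name only mir-24-1 as its precursor. The table gives the miR-24-3p seed to 4 other miRNAs, miR-5124b, miR-6369, miR-6410 and miR-6413, and none of these had a mature count.

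The hairpins of the miR-27 and miR-24 genes are shown because the catalogues count mature and hairpin entries apart. Capitals mark the 5p and 3p arms.
Mir27a (chr8:84208672-84208758, plus strand): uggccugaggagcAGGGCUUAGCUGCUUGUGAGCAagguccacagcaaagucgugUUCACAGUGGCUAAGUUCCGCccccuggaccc
Mir27b (chr13:63300712-63300784, plus strand): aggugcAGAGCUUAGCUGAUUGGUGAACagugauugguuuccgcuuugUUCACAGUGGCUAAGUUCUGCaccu
Mir24-2 (chr8:84208815-84208921, plus strand): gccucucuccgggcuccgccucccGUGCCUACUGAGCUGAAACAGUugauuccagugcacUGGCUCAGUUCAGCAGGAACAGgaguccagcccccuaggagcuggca
Mir24-1 (chr13:63301208-63301275, plus strand): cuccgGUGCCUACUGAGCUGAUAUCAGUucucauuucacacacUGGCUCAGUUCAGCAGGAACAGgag
The miR-27 genes share the 3p arm except for the base above, while the 5p arms of the miR-24 genes share their first 16 bases and then diverge. Each miR-24 5p product can therefore name its cluster, which the 3p product cannot, but only in reads that reach past these 16 bases.

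The libraries held 25716952 to 27939308 clean reads, with 870967 to 1005836 counts on mature and 493345 to 612122 on hairpin entries. Counts were scaled to a total of 1000000 mature or hairpin counts per library (CPM), so CPM of the 2 types have different denominators. Of the 19 member entries, 13 had at least 10 counts in every library.

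The members together held 1.62%, 2.38% and 1.66% of the mature miRNA counts in replicates 1, 2 and 3, a mean of 1.89% ± 0.426 (SD, n = 3). They held 2.54%, 3.43% and 3.04% of the hairpin counts, with a mean of 3.00% ± 0.446 (SD, n = 3). Replicate 2 had the highest share by either count. The exact binomial (Clopper-Pearson) 95% intervals of the mature shares, 1.60% to 1.65%, 2.35% to 2.41% and 1.63% to 1.68%, cover counting error only, and replicate 2 lay outside the other intervals.

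By family, miR-27 took 40.5% ± 4.30 of the mature member counts, miR-24 33.4% ± 7.16 and miR-23 26.0% ± 3.93 (SD, n = 3 each). This order of means did not hold in each library, since miR-24 was just above miR-27 in replicate 2, at 9392 against 9350 counts, and miR-23 was above miR-24 in replicate 3, at 4683 against 4080. Among the hairpin member counts the split was wider, with 62.1% ± 3.30 for miR-27, 29.2% ± 3.69 for miR-24 and 8.69% ± 1.04 for miR-23 (SD, n = 3 each). The miR-23 share was thus lower among hairpin than among mature entries in each library.

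miR-24-3p, which both clusters encode, was the most abundant member by mean mature level. It had 5727, 9219 and 4149 CPM of the mature counts in replicates 1, 2 and 3, a mean of 6365 ± 2595 (SD, n = 3) and rank 24 of 604 mature miRNAs. Replicate 2 stood well above the others, and the highest library exceeded the lowest by 2.22 times, against a median of 1.73 times over the 272 mature miRNAs that reached 10 counts in each library.

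miR-27b-3p, from the b cluster, followed with 4518, 6633 and 5016 CPM (mean 5389 ± 1106, SD, n = 3) and rank 25. Its order relative to miR-24-3p changed between libraries, since miR-24-3p was higher in replicates 1 and 2 and miR-27b-3p in replicate 3. The log2 ratio of miR-24-3p to miR-27b-3p was 0.18 ± 0.40 (SD, n = 3; p = 0.50 in a two-sided exact permutation test that flips signs within libraries), a difference smaller than its spread. With 3 libraries the smallest p of this test is 0.25, so none of the 22 ratios tested could pass 0.05. Ratios with an exact permutation p of 0.25 had a Benjamini-Hochberg adjusted p of 0.324 over the 22.

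The remaining 3p members lay close together. miR-23b-3p had 2534, 2955 and 2481 CPM (mean 2657 ± 259.5, SD, n = 3) and rank 35. miR-27a-3p had 1446, 2630 and 2472 CPM (mean 2182 ± 643) and rank 44, with replicate 1 well below the others. miR-23a-3p had 1883, 2191 and 2303 CPM (mean 2126 ± 218) and rank 45. Of the neighbours in this order, miR-27b-3p exceeded miR-23b-3p in every library, with a log2 ratio of 1.01 ± 0.17 (SD, n = 3; p = 0.25, the same exact permutation test). miR-23b-3p was above miR-27a-3p in every library as well, but in replicate 3 only by 2398 against 2389 counts, and the log2 ratio of 0.33 ± 0.43 was smaller than its SD (n = 3; p = 0.25, exact permutation test). miR-27a-3p and miR-23a-3p changed order between libraries, with a log2 ratio of -0.005 ± 0.335 (SD, n = 3; p = 1.00, exact permutation test).

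Among the hairpin entries miR-27b-3p had the highest mean level, ahead of miR-24-3p and then miR-27a-3p. miR-27b-3p had 9896, 13568 and 13603 CPM of the hairpin counts (mean 12355 ± 2130, SD, n = 3) and rank 17 of 743 hairpin entries, and miR-24-3p followed with 7842, 10764 and 7598 (mean 8735 ± 1762) and rank 25. miR-27a-3p had 5098, 7325 and 6412 CPM (mean 6278 ± 1119.7) and rank 33. Replicate 1 was the lowest library for both miR-27 members. Replicate 2 was the highest for miR-24-3p and miR-27a-3p, as it was among mature entries, and for miR-27b-3p it was just below replicate 3. The miR-23 members were much lower, at 1639.6 ± 304 CPM for miR-23a-3p, rank 76, and 885 ± 100.1 for miR-23b-3p, rank 95 (SD, n = 3 each).

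**Figure D1:**
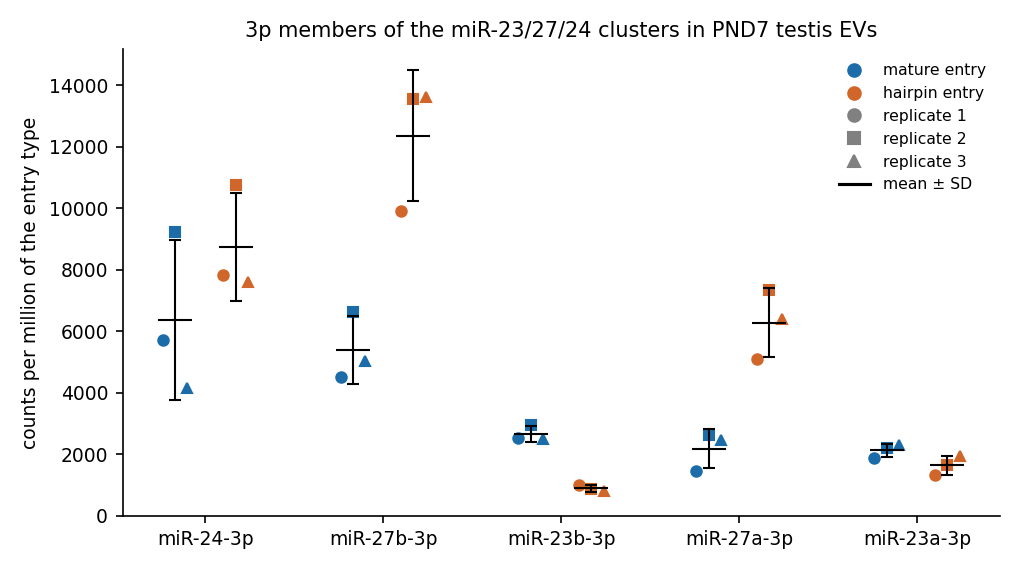
Level of the 3p members in each library, in CPM of the mature counts (blue) or of the hairpin counts (orange), with the mean and SD of the 3 libraries. Mature miR-24-3p spreads from 4149 to 9219 and the miR-23 entries reach at most 2955, while hairpin miR-27b-3p reaches 13603; the colours have different denominators.

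For miR-23 and miR-27, the b cluster gave more mature counts than the a cluster. miR-24 was left out of this comparison because its 3p sequence is shared, and its few mature 5p counts that name a cluster were almost all of the a cluster, with 44, 119 and 69 of miR-24-2-5p against 0, 0 and 1 of miR-24-1-5p. Its hairpin 5p counts pooled over the libraries went the other way, with 7 of miR-24-2-5p against 65 of miR-24-1-5p, though not in replicate 3. With both arms summed, miR-23a plus miR-27a had 2901, 4849 and 4616 mature counts in replicates 1, 2 and 3, and miR-23b plus miR-27b had 6202, 9677 and 7337. The log2 ratio of the a to the b cluster was -0.92 ± 0.22 (SD, n = 3; p = 0.25, exact permutation test). The b cluster was higher in every library, by 1.89 times on average. Counts of the Rfam precursor families, given below, name no cluster and are outside this comparison. For mir-23 these were 26480, 35532 and 24897, more than the mature and hairpin counts of miR-23 together in each library.

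Most of this came from miR-27. miR-27a-3p had 1259, 2645 and 2389 mature counts and miR-27b-3p had 3935, 6672 and 4848, so that miR-27a-3p made up 24.2%, 28.4% and 33.0% of their sum. The log2 ratio was -1.33 ± 0.31 (SD, n = 3; p = 0.25, exact permutation test), and the exact 95% interval of the share reached at most 34.1% in any library. For miR-23, the 1640, 2204 and 2226 mature counts of miR-23a-3p stood against 2207, 2972 and 2398 of miR-23b-3p. The log2 ratio of -0.32 ± 0.19 (SD, n = 3; p = 0.25, exact permutation test) had the same direction but was smaller, and in replicate 3 it was -0.11.

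The hairpin entries gave a different balance for miR-23. miR-23a-3p had 659, 1003 and 1123 hairpin counts in replicates 1, 2 and 3, against 491, 526 and 462 for miR-23b-3p. The a member was thus the higher in every library, with a log2 ratio of 0.88 ± 0.43 (SD, n = 3; p = 0.25, exact permutation test), the opposite direction to the mature entries. The difference of the ratios, hairpin minus mature, was 0.85, 1.36 and 1.39 in the same order, with a mean of 1.20 ± 0.30 (SD, n = 3; p = 0.25, exact permutation test). With both types summed, the miR-23a-3p to miR-23b-3p log2 ratio was -0.04, and its sign differed between libraries. Whether short or mismatched reads of this pair were told apart was not checked for either type.

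For miR-27 the hairpin entries kept the direction of the mature ones. miR-27a-3p had 2515, 4484 and 3703 hairpin counts and miR-27b-3p had 4882, 8305 and 7856, a log2 ratio of -0.98 ± 0.10 (SD, n = 3; p = 0.25, exact permutation test). The difference between the types was 0.69, 0.45 and -0.06, with a mean of 0.36 ± 0.38 (SD, n = 3; p = 0.50, exact permutation test), which is smaller than its spread.

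**Figure D2:**
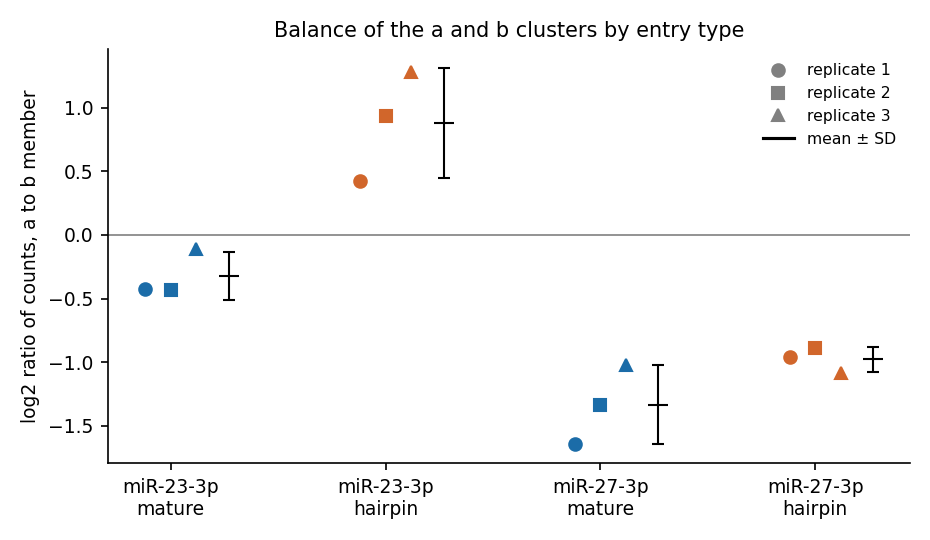
Log2 ratio of the a to the b member for miR-23-3p and miR-27-3p, by entry type (blue mature, orange hairpin), 1 point per library with the mean and SD beside it; 0 means equal counts. miR-23-3p lies below 0 for mature (mean -0.32) and above 0 for hairpin entries (mean 0.88), whereas miR-27-3p lies below 0 for both.

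Within the clusters, the ratio of miR-27 to miR-23 also differed between the entry types, though this difference itself was not tested. It follows from the ratios of hairpin to mature counts given below and is not a separate result. In the a cluster the mature log2 ratio of miR-27a-3p to miR-23a-3p was near 0, as given above, and the hairpin ratio was 1.93, 2.16 and 1.72 (mean 1.94 ± 0.22, SD, n = 3). In the b cluster, miR-27b-3p exceeded miR-23b-3p by 3.31, 3.98 and 4.09 on the log2 scale among hairpin entries (mean 3.79 ± 0.42, SD, n = 3). Each hairpin ratio was above 0 in every library (p = 0.25, exact permutation test).

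Over the 3p members together, hairpin and mature counts were of similar size. The log2 ratio of hairpin to mature counts was -0.18, -0.18 and 0.14, with a mean of -0.07 ± 0.19 (SD, n = 3; p = 0.50, exact permutation test). On the CPM scale the same ratio was 0.69, because the hairpin totals are the smaller denominators.

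This balance hid a split by family. miR-27a-3p and miR-27b-3p had more hairpin than mature counts in every library, with log2 ratios of 0.80 ± 0.19 and 0.44 ± 0.22. miR-23a-3p and miR-23b-3p had more mature than hairpin counts in every library, with -1.15 ± 0.16 and -2.35 ± 0.17 (SD, n = 3 each; p = 0.25 for each of the 4, exact permutation test). miR-24-3p had 4988, 9273 and 4010 mature against 3869, 6589 and 4388 hairpin counts, so replicate 3 alone had more hairpin counts, and the mean log2 ratio was -0.24 ± 0.33 (SD, n = 3; p = 0.50, exact permutation test).

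Of the 221 miRNA identifiers that reached 10 counts of both types in each library, 5 are members. Hairpin counts were higher in every library for 2 of the 5 members, both of them miR-27, against 29.9% of the 221. Mature counts were higher in every library for 2 of the 5, both of them miR-23, against 47.1%. The median log2 ratio of hairpin to mature over the 221 was -0.27, and the quartiles were -1.41 and 0.85. miR-24-3p was thus near the median, miR-23a-3p and both miR-27 members lay between the quartiles, and miR-23b-3p was below them.

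**Figure D3:**
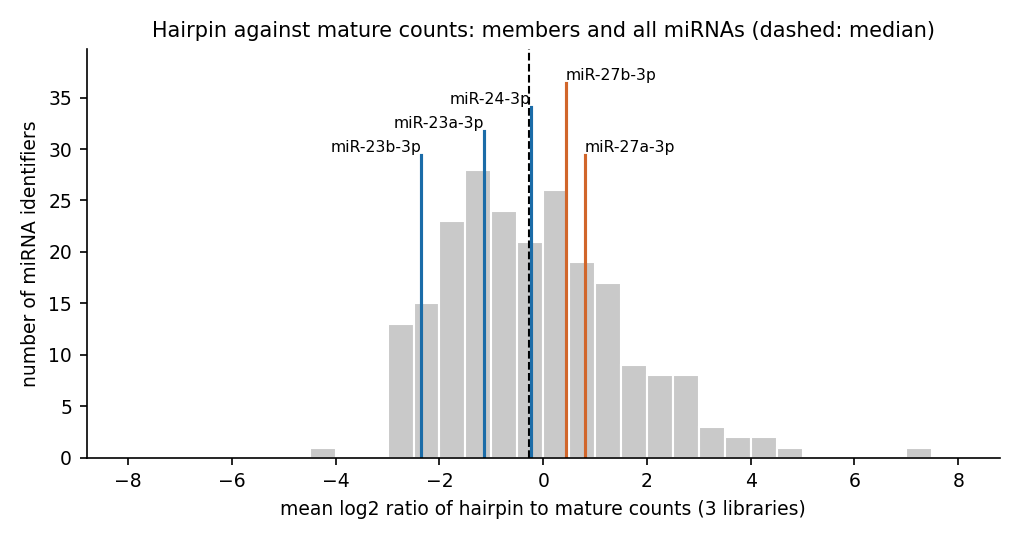
Histogram of the mean log2 ratio of hairpin to mature counts for the 221 miRNA identifiers that reached 10 counts of both types in each library, with the median (-0.27, dashed) and the 3p members as lines (orange above 0, blue below). The miR-23 members lie left of the median, at -1.15 and -2.35, miR-24-3p lies beside it and the miR-27 members lie right of it, at 0.44 and 0.80.

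The 3p arm dominated throughout. The 3p members had 14029, 23766 and 15871 mature counts in replicates 1, 2 and 3, and the 5p members 106, 152 and 162, a share of 0.799% ± 0.192 (SD, n = 3). The log2 ratio of 3p to 5p was 6.98 ± 0.34 (SD, n = 3; p = 0.25, exact permutation test). Mature 3p counts were above 5p counts in every library for all 4 member names counted on both arms, miR-23b, miR-24, miR-27a and miR-27b, against 32.2% of the 121 miRNA names with both arms counted and at least 10 counts of an arm in every library.

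The 5p products differed among themselves. miR-24-2-5p, from the a cluster, had 44, 119 and 69 mature counts, the highest 5p values among the members in replicates 2 and 3. miR-27b-5p had 49, 33 and 32 mature counts, and the log2 ratio of 3p to 5p was 7.08 ± 0.68 for miR-27b and 6.32 ± 0.49 for miR-24 (SD, n = 3 each; p = 0.25 for each, exact permutation test). miR-23b-5p had 11, 0 and 59 mature counts and did not keep a stable level. miR-27a-5p had 2, 0 and 1 mature counts and no hairpin count, and miR-23a-5p had no count of either type. A count of 0 allows up to 3 counts, or 2.98 to 3.44 CPM of the mature counts of a library.

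The 5p arms of the miR-24 genes differed in their split between mature and hairpin counts. Their sequences are shown with the seed in capitals, which is the same in both.
miR-24-2-5p: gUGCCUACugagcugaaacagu
miR-24-1-5p: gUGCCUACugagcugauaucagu
Over the 3 libraries, miR-24-2-5p had 232 mature counts and miR-24-1-5p had 1, so miR-24-2-5p held 99.6% of them (exact 95% interval 97.6% to 99.99%). Among hairpin counts miR-24-2-5p had 7 and miR-24-1-5p had 65, a share of 9.72% (exact 95% interval 4.00% to 19.0%). The hairpin counts of miR-24-1-5p were 32, 33 and 0 in replicates 1, 2 and 3, against 2, 3 and 2 of miR-24-2-5p. The order thus turned in replicate 3, and the interval of the pooled share does not cover this spread between libraries. Opposite the miR-24 genes lie Mir3074-1 and Mir3074-2, described below. Hairpin miR-3074-1-3p had 31, 0 and 34 counts, and mature miR-3074-2-3p had 3, 150 and 6. Whether counting used the strand is not given in the sources used here. Reads of the 5p arms and of these products may therefore not have been told apart. Hairpin miR-27b-5p had 52 counts in replicate 1, 1 in replicate 2 and none in replicate 3, whereas hairpin miR-23b-5p had 21, 44 and 35.

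Beyond the members, the catalogues list Rfam precursor families, to which the authors gave reads only after miRBase in their order of databases. The mir-23 family entry (RF00642) had 26480, 35532 and 24897 counts in replicates 1, 2 and 3. It was the most abundant of 259 precursor entries, with 20.6% ± 3.35 of the precursor counts (SD, n = 3), and it was 4.83 ± 0.759 times the mature and hairpin counts of miR-23 together (SD, n = 3). The mir-27 entry (RF00644) had 2160, 2797 and 2683 counts, 0.146 ± 0.0222 times the miR-27 members, and the mir-24 entry (RF00178) had 729, 1030 and 966, 0.0866 ± 0.0253 times the miR-24 members (SD, n = 3 each). The order of the families therefore depended on these entries. Without them miR-27 had the most counts in every library, at 12694, 22140 and 18829, and with them miR-23 did, at 31509, 42281 and 31200. These entries name a family and not a cluster or an arm, and the part of the hairpin that their reads cover is not given in the files.

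**Figure D4:**
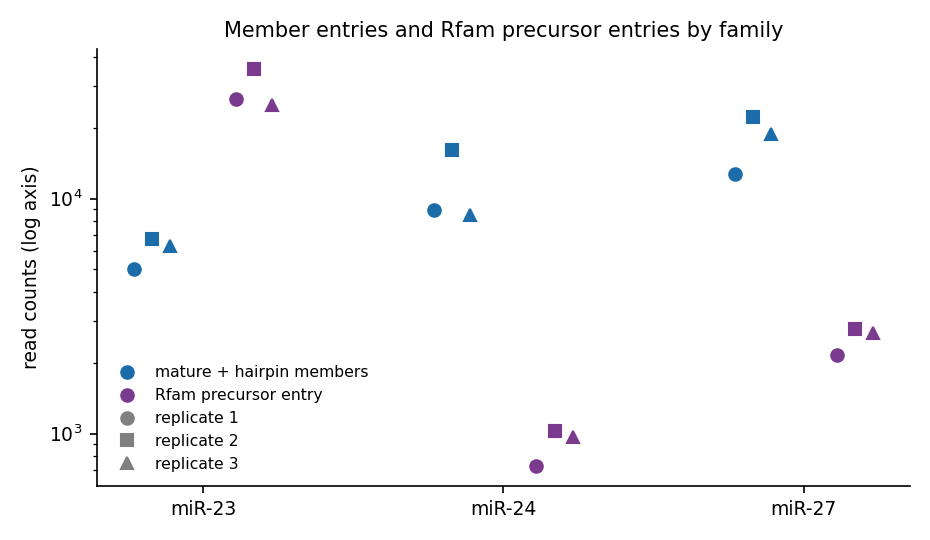
Read counts per library (log axis) of the mature and hairpin members of each family summed (blue) and of the Rfam precursor entry of the same family (purple), 1 point per library. For miR-23 the precursor entry, 24897 to 35532, lies above the members, while for miR-24 and miR-27 it lies below them.

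The miR-24 genes are overlapped on the opposite strand by Mir3074-1 and Mir3074-2, whose shared 5p product is nearly antisense to miR-24-3p, and it is shown for that reason with its seed in capitals.
miR-3074-5p: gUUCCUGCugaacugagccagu
Its first 20 of 22 bases are contained in the reverse complement of miR-24-3p. The hairpin entry of miR-3074-5p had 787, 1328 and 770 counts, which was 20.3%, 20.2% and 17.5% of the miR-24-3p hairpin counts in replicates 1, 2 and 3 (mean 19.3% ± 1.56, SD, n = 3). Its mature entry had 31, 0 and 0 counts. Whether the authors' counting used the strand is not given in the sources used here. Reads of miR-24-3p and miR-3074-5p may thus not have been told apart, and the same holds for the miR-24 5p arms and the miR-3074 3p products.

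To place the members among other cargoes, the mature miRNA outside the clusters with the closest level was found for each 3p member, by the mean absolute difference in log2 CPM over the 3 libraries among 265 miRNAs. For miR-23a-3p it was miR-154-5p (difference 0.11), for miR-23b-3p miR-125b-5p (0.11), for miR-27a-3p miR-196b-5p (0.14), for miR-27b-3p miR-191-5p (0.28) and for miR-24-3p miR-16-5p (0.44). The last 2 matches were the least close. With 3 libraries this describes a similar level, not a shared pattern.

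Levels of miRNAs known from the cell types of the testis are given beside the members. miR-202-5p, typical of gonadal somatic cells, had 23963 ± 4952 CPM of the mature counts. The endothelial miR-126a-3p had 12387 ± 4218.5, and the mural miR-143-3p and miR-145a-5p had 9477 ± 645 and 3337 ± 363 (SD, n = 3 each). The erythroid miR-451a and miR-144-3p had 411 ± 102 and 6.05 ± 1.95, and of the germ cell miRNAs miR-449a-5p had 718 ± 314 (SD, n = 3 each) while miR-34c-5p had no mature count in any library. Among the hairpin entries miR-451a had 2008 ± 381 CPM of the hairpin counts (SD, n = 3), above either miR-23 member, and miR-144-3p had 1 count in all. Hairpin miR-202-5p, miR-143-3p, miR-126a-3p and miR-145a-5p were above miR-451a, with means of 13997, 11246, 3865 and 2595 CPM. Hairpin miR-449a-5p had a mean of 84.1 CPM, and miR-34c-5p had 1 count in all. Mature miR-126a-3p was lowest in replicate 1 and highest in replicate 3, at 8693 and 16984 CPM, the order that miR-23a-3p also had. Mature miR-143-3p, miR-202-5p and miR-449a-5p were highest in replicate 2, as were the other 3p members. The remaining markers with mature counts, miR-145a-5p, miR-451a and miR-144-3p, were highest in replicate 1, where no 3p member was. For miR-145a-5p the lead over replicate 2 was small, at 3554 against 3539 CPM, while miR-451a was lowest in replicate 2. The part of any cell type in the members' levels was not tested.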

How the data were processed

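Small RNA of PND7 mouse testis EVs was sequenced by the authors on the BGISEQ-500 platform in 3 libraries. They removed low-quality reads, mapped clean reads with Bowtie2 and cmsearch (versions not given in the sources used here) to the genome, mm10 by the submitters' processing notes, and to small RNA databases, and gave each read to 1 class, miRBase first. The authors deposited raw read counts per small RNA entry and per class, with no normalization. A further column headed as molecular identifiers was not used. What separates mature from hairpin entries is not given in the sources used here. PCR copies were not told apart, so the exact intervals treat any copies as separate reads.

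Groups and replicate numbers came from the sample titles. From the deposited counts, CPM per entry type, shares with exact binomial 95% intervals and log2 ratios within libraries were computed and tested by exact permutation, flipping the signs of the 3 ratios, two-sided. Library pairs differed by a chi-square per degree of freedom of 96.6 to 187 over 272 mature miRNAs, so none was a library deposited again, and the statistic was tested on simulated data. The labels name the libraries biological replicates. Members and lists were chosen with earlier results of these data known. The text names every member, the Rfam families mir-23, mir-24 and mir-27, miR-3074, miR-128-3p, miRNAs with a member's seed, the closest miRNA in level and cell type markers. Alternatives changed the denominator, scaling (edgeR 4.0.16 TMM, DESeq2 1.42.0 size factors), entry type, arms, a minimum of 10 counts, a pseudocount of 0.5, pooling, and each replicate left out. Sequences came from RefSeq and gene positions from GENCODE vM21. Tests ran in SciPy 1.17.1 and numpy 2.4.6 under Python 3.11.15, with pandas 2.3.3, matplotlib 3.10.9 and R 4.3.3.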

Additional observations from a re-analysis of the deposited data

Results flagged for a closer look

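The Rfam precursor entries were not used in the comparisons of members and held counts well above the 3 that a count of 0 allows. The lowest count of a library was 24897 for mir-23, 2160 for mir-27 and 729 for mir-24. There was no control library to set a background level.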

How the results depend on the processing

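Of 49 alternatives for 7 main results, 43 kept the direction or stayed within the spread between libraries, 4 moved a share and 2 reversed a ratio. The mature share of the members, 1.89%, became 1.18% of mature and hairpin counts together and 0.0681% of all clean reads, and the hairpin share, 3.00%, became 1.12% and 0.0641%, all by the larger denominators. The log2 ratio of miR-23a-3p to miR-23b-3p reversed from -0.32 to 0.88 with hairpin entries, and that of hairpin to mature counts from -0.07 to 0.69 as a ratio of CPM, by the different totals. None of the 21 values with a replicate left out moved past the spread or reversed. Of 35 alternatives for the mature CPM of the 3p members, 3 shifted a level beyond 1 SD of the libraries, all by summing mature and hairpin entries, for miR-23b-3p, miR-27a-3p and miR-27b-3p. The 3 libraries limit every test here, while the 5p entries are limited by their counts.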

Other observations

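The first 8 bases of miR-128-3p occur in miR-27a-3p from its base 2. miR-128-3p had 154, 156 and 27 mature counts and 4, 40 and 43 hairpin counts in replicates 1, 2 and 3. Its mature level was 120 ± 80.4 CPM (SD, n = 3), and replicate 3 was the lowest for mature and the highest for hairpin counts.

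The 3p products opposite the miR-24 genes were rare and uneven. miR-3074-2-3p had 3, 150 and 6 mature counts, so its mature level rests on replicate 2, and miR-3074-1-3p had 25, 0 and 1. The hairpin counts were 12, 3 and 1 for miR-3074-2-3p and 31, 0 and 34 for miR-3074-1-3p.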
